A study of Mus musculus with 22 samples.

Results

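The 9 genes Nfasc, Nrcam, Ank3, Sptbn4, Cntn1, Cntnap1, Epb41l3, Cntn2 and Cntnap2 encode adhesion and scaffold proteins of the node of Ranvier and of the axon domains beside it. They were chosen by symbol from the 37786 genes of the count table, and each of the 9 symbols was found in 1 row. The anterior cingulate cortex (ACC) was dissected for RNA sequencing as bulk tissue. This cortical area receives input from the basolateral amygdala (BLA). The mice were adult male wildtype C57BL/6J, and both groups carried channelrhodopsin-2 in the BLA, delivered by an AAV5 vector with the CaMKIIa promoter, and an optic implant in the ACC. The light was never switched on in the 12 control mice. The 10 stimulated mice received 9 sessions of blue light onto the BLA terminals in the ACC. CaMKIIa drives expression mainly in excitatory neurons, so the activated axons came from BLA neurons while the RNA came from every cell type of the ACC. In such tissue, fewer cells of a type and less RNA per cell cannot be told apart.

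In a myelinated axon the action potential is renewed at the nodes, short gaps between myelin segments where voltage-gated sodium channels are packed. The neuronal form of neurofascin (Nfasc) and NrCAM (Nrcam) are nodal adhesion molecules, ankyrin-G (Ank3) anchors them together with the sodium channels, and βIV-spectrin (Sptbn4) ties ankyrin-G to actin. The same proteins build the axon initial segment. At the paranode, contactin-1 (Cntn1) and Caspr (Cntnap1) on the axon bind a glial form of neurofascin on the myelin loops, and protein 4.1B (Epb41l3) links Caspr to the axonal cytoskeleton. At the juxtaparanode, contactin-2 (Cntn2, also called TAG-1), made by oligodendrocytes and some neurons, and Caspr2 (Cntnap2) hold potassium channels under the compact myelin.

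All 9 are protein-coding genes, and each count is over the gene's exons, UTRs included. In GENCODE M21 on GRCm38, Nfasc (ENSMUSG00000026442) lies at chr1:132564690-132741797 on the minus strand and Cntn2 (ENSMUSG00000053024) beside it at chr1:132509427-132543256 on the same strand. Nrcam (ENSMUSG00000020598) is at chr12:44328885-44601964, Ank3 (ENSMUSG00000069601) at chr10:69398773-70027438, Cntn1 (ENSMUSG00000055022) at chr15:92051165-92341967 and Cntnap1 (ENSMUSG00000017167) at chr11:101170523-101190724, all on the plus strand. Epb41l3 (ENSMUSG00000024044) is at chr17:69075683-69289989 and Cntnap2 (ENSMUSG00000039419) at chr6:45059357-47304213 on the plus strand, and Sptbn4 (ENSMUSG00000011751) is at chr7:27356383-27447686 on the minus strand. Exonic length ranged from 5875 bases for Cntnap1 to 34838 for Ank3, and the number of annotated transcripts from 2 to 47. Counts were per gene, so the neuronal and glial forms of neurofascin and the isoforms of ankyrin-G were not separated. Of the exonic bases of Cntnap1, 233 overlap Plekhh3 on the opposite strand, 3.97% of its length. Sptbn4 shares 134 exonic bases with Gm20479 and 243 with Gm44924, which had 0 to 2 counts in any mouse. The strand setting of the counting is not given in the sources used here.

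Sequences before the RefSeq start of 3 genes are shown because of how these genes behaved in the counts. Cntn1 and Nrcam were the most abundant members and varied together, and Cntnap2 varied least over the 22 mice. RefSeq promoter sequences (GRCm38.p6) were matched for 7 of the 9 members. Each stretch below is the 250 bases before the outermost listed start, read 5′ to 3′ on the gene's strand, with GGGCGG or its reverse complement CCGCCC (the GC box bound by SP factors) in capitals. They are Cntn1 at chr15:92050915-92051164, Nrcam at chr12:44328635-44328884 and Cntnap2 at chr6:45059811-45060060, all on the plus strand. The stretches of Cntn1 and Nrcam lie before the GENCODE gene, and that of Cntnap2 lies inside it, with 0 exonic bases.
Cntn1: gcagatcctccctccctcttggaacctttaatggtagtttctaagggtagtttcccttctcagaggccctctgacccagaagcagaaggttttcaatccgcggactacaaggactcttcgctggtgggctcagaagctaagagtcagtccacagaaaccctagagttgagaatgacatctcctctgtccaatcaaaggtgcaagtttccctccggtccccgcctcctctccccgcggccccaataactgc
Nrcam: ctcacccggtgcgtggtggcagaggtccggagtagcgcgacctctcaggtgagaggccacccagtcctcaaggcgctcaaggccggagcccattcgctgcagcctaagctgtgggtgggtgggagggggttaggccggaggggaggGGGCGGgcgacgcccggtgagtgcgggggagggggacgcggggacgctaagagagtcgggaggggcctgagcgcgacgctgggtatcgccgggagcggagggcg
Cntnap2: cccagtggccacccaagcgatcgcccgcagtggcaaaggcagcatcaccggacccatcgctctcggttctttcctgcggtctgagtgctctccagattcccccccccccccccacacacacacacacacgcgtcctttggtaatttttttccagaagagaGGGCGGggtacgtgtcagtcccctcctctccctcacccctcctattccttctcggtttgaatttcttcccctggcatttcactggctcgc
Their GC content was 53.6% for Cntn1, 72.4% for Nrcam and 59.6% for Cntnap2, against a median of 52.4% over 32851 promoters of the same length. They held 7, 25 and 13 CpG dinucleotides, against a median of 6. A GC box on either strand was present in 5 of the 7 matched members, Cntn2 and Cntn1 being those without one, and in 32.7% of all promoters. ACAAAG and ACAATG, core letters of SOX factor motifs, were searched on both strands. They occurred in 0 of the 7 members and in 16.5% and 10.7% of all promoters, respectively.

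Total counts per mouse were 24563116 to 36542883 in controls and 23090483 to 43668462 in stimulated mice. All 9 members passed the minimum of 10 counts in at least 10 mice, and the lowest count of any member in any mouse was 614, for Cntn2. The labels carry library numbers that fall into runs 1 to 11 (6 controls, 4 stimulated mice) and 12 to 23 (6 controls, 6 stimulated mice), with no sample numbered 7. These are called the first and the second run below. The methods describe 2 cohorts and a batch covariate, but the labels do not say which mice belong to which, so the run stands for itself. It is a term in the comparisons, because most of the spread of the members lay between runs. The share of counts from mitochondrially encoded genes was also higher in the first run, at 1.63% to 4.81%, than in the second, at 0.982% to 1.90%. Within the first run controls 1, 2 and 3, at 4.41%, 4.81% and 3.04%, were above the 4 stimulated mice at 1.79% to 2.80%, and the part of this in the members' differences was not tested. Controls 9 and 11 of the second run stand apart from every other mouse in genes of myelin, and the members' results that rest on them are given with and without them.

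Per kilobase of exon, Cntn1 and Nrcam were the most abundant members and Cntn2 and Ank3 among the least. In the first run the mean level was 27.5 ± 3.17 CPM (counts scaled to the size of the library) per kilobase for Cntn1 (SD, n = 10), 20.6 ± 1.85 for Nrcam and 11.6 ± 1.73 for Epb41l3, and the ranges of these 3 overlapped neither each other nor any other member. Nfasc at 5.52, Cntnap2 at 5.51, Sptbn4 at 5.05, Cntnap1 at 4.93, Ank3 at 3.46 and Cntn2 at 2.81 followed, and each overlapped its neighbor in this order. In the second run Cntn1 at 57.8 ± 6.37 (SD, n = 12) and Nrcam at 51.5 ± 6.39 overlapped, and both lay above Epb41l3 at 21.4 ± 4.44. Below it came Cntnap1 at 14.4, Nfasc at 13.1, Sptbn4 at 11.5, Cntn2 at 9.66, Ank3 at 5.55 and Cntnap2 at 5.47, again each overlapping the next. The place of Ank3 depended on the length used, as did the gaps among Cntn1, Nrcam and Epb41l3. Divided by its longest transcript of 9963 bases, Ank3 had a mean of 12.1 in the first run and 19.4 in the second. This was above Nfasc in both runs, with overlapping ranges in the second. With the longest transcript as the length, the ranges of Cntn1, Nrcam and Epb41l3 overlapped each other in both runs. Nrcam, at a mean of 109.6, then came before Cntn1, at 96.2, in the second run.

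**Figure D1:**
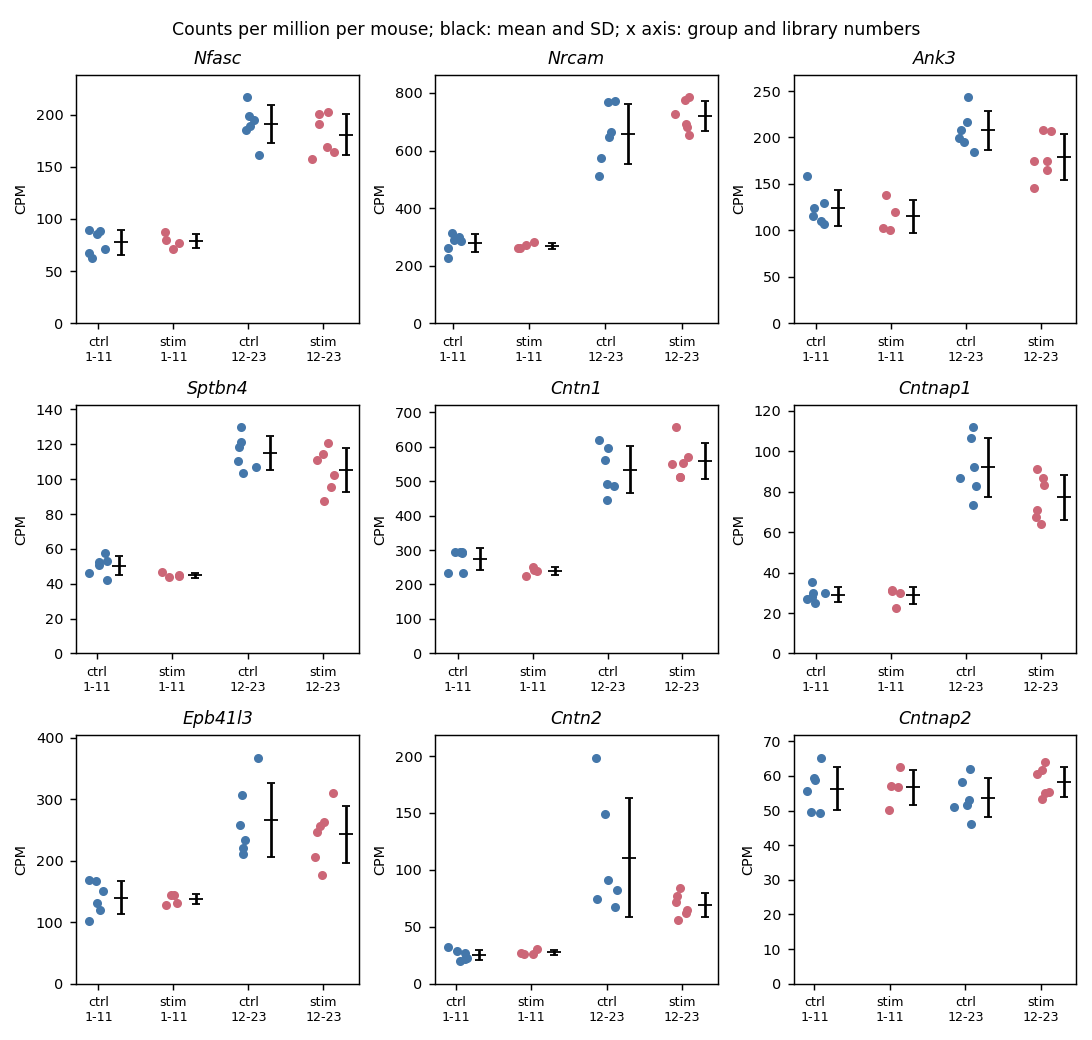
CPM of each member in each of the 22 mice, split by run of library numbers and by group, with the mean and SD of each group. For 7 of the 9 genes every mouse of the second run lies above every mouse of the first, Cntnap2 is level across the runs, and 2 controls of the second run stand high for Cntn2.

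Of the 9 members, 8 were higher in the second run, and Cntnap2 was not. With group in the model, the log2 difference between runs was 1.77 (SE 0.17) for Cntn2, 1.56 (SE 0.09) for Cntnap1, 1.32 (SE 0.07) for Nrcam, 1.25 (SE 0.07) for Nfasc and 1.21 (SE 0.06) for Sptbn4. It was 1.08 for Cntn1, 0.88 for Epb41l3 and 0.70 for Ank3, with a largest adjusted p of 5.63e-08 among these 8 by edgeR's quasi-likelihood test. For Cntnap2 it was -0.02 (SE 0.06, edgeR adjusted p = 0.787). Over all 17524 genes tested, 33.7% were higher in the second run at an adjusted p under 0.05. Non-overlapping ranges with the second run higher were seen in 7 of 9 members and in 13.9% of all genes. The exceptions were Ank3 and Cntnap2. Long genes as a class were higher in the second run. Of the 5055 genes with at least the exonic length of Cntnap1, the shortest member, 63.9% were higher and 12.0% lower, whereas of 12461 shorter genes 21.5% were higher and 43.4% lower. Whether the run difference comes from the mice or from library preparation cannot be told apart. Over all 22 mice the coefficient of variation in CPM was 73.0% for Cntn2, 27.1% to 51.2% for 7 others and 9.43% for Cntnap2. Within the first run it was 9.75% for Cntnap2 and 8.97% for Nrcam, the lowest there.

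Whether repeated activation of the BLA–ACC pathway altered these genes was asked by comparing the 10 stimulated with the 12 control mice. No member passed the adjusted threshold. Of the 9, 7 had lower estimates in stimulated mice. The median log2 fold change of the 9 was -0.09, and -0.03 without controls 9 and 11, against 0.01 over all genes, of which 47.4% were lower. Sptbn4 and Ank3 had an unadjusted p under 0.05, as did 11.5% of all genes. The adjusted threshold was passed by 0% of all genes in edgeR. DESeq2's Wald test and limma called 33 and 1 genes, and 0 members. The control and stimulated ranges overlapped for all 9 members, over all mice and within each run. Ranges were apart in 0.00571% of all genes over all mice, in 1.29% within the first run and in 0.548% within the second.

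Among the nodal genes, the scaffold Sptbn4 lay between 42.2 and 57.5 CPM in the first-run controls (median 51.6) and was 45.3, 44.2, 46.9 and 43.7 CPM in the 4 stimulated mice. Second-run controls lay between 103 and 130 CPM (median 114) and second-run stimulated mice between 87.3 and 121 (median 107). All 4 stimulated mice of the first run lay under the control median, and in the second run the 3 lowest mice were stimulated. The log2 fold change was -0.14 (SE 0.06, edgeR p = 0.0265, adjusted p = 0.383). Ank3 ranged from 107 to 159 CPM in first-run controls (median 120) and was 100, 103, 119 and 138 in the stimulated mice. Its second-run values were 184 to 243 among controls (median 204) and 146 to 208 among stimulated mice (median 175). Its log2 fold change was -0.17 (SE 0.08, edgeR p = 0.0421, adjusted p = 0.416). Leaving out controls 9 and 11 gave -0.12 for both genes, with unadjusted p of 0.0802 and 0.172 by edgeR, and 0 members then had an unadjusted p under 0.05 (8.16% of all genes did).

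The adhesion molecules that these scaffolds hold had estimates nearer to 0. Nfasc ranged from 62.7 to 89.6 CPM in first-run controls (median 78.8) and was 71.4, 79.7, 76.8 and 87.9 in the stimulated mice. Its second-run range was 162 to 217 in controls (median 192) and 157 to 203 in stimulated mice (median 180). The groups lay over each other in both runs, and the log2 fold change was -0.03 (SE 0.07, edgeR adjusted p = 0.882). Nrcam was 226 to 314 CPM in first-run controls (median 286) and 260, 283, 271 and 262 in stimulated mice. Second-run controls had 510 to 772 (median 656) and stimulated mice 654 to 786 (median 711). The 2 lowest of these 12 mice were controls 9 and 11, at 510 and 575 CPM. The log2 fold change of Nrcam was 0.05 (SE 0.07, edgeR adjusted p = 0.821), and it was -0.01 without them.

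Of the paranodal genes, Cntn1 ranged from 232 to 295 CPM in first-run controls (median 293) and was 239, 250, 243 and 225 in stimulated mice. Second-run controls had 445 to 619 (median 527) and stimulated mice 512 to 656 (median 550). All 4 stimulated mice of the first run lay under the control median. The difference between runs in the effect was 0.26 (SE 0.14, edgeR p = 0.0704, adjusted p = 0.658), and the pooled log2 fold change was -0.05 (SE 0.07, edgeR adjusted p = 0.831), or -0.10 without controls 9 and 11. Its Caspr partner, Cntnap1, was 25.2 to 35.3 CPM in first-run controls (median 28.8) and 31.3, 30.1, 31.1 and 22.4 in stimulated mice. Its second-run values were 73.4 to 112 among controls (median 89.4) and 64.2 to 91.2 among stimulated mice (median 77.2), with controls 9 and 11 at 106 and 112. The pooled log2 fold change of Cntnap1 was -0.15 (SE 0.09, edgeR p = 0.0909, adjusted p = 0.50), and it was -0.06 (edgeR p = 0.453) without these 2 controls. For the 4.1B gene Epb41l3, first-run values were 102 to 169 CPM in controls (median 141) and 129, 144, 144 and 132 in stimulated mice. Second-run values were 210 to 368 (median 246) and 177 to 310 (median 251), the highest being control 9. The log2 fold change was -0.09 (SE 0.11, edgeR adjusted p = 0.776) and -0.0080 without controls 9 and 11.

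Over all 22 mice the juxtaparanodal pair differed most in how much they varied. Within the first run the coefficient of variation was 14.6% for Cntn2 and 9.75% for Cntnap2. There Ank3 was above Cntn2 at 15.0% and Nrcam below Cntnap2 at 8.97%. Cntn2 ranged from 19.9 to 32.0 CPM in first-run controls (median 24.9) and was 27.4, 25.9, 25.9 and 30.4 in the stimulated mice. Second-run controls spread from 67.2 to 199 (median 86.8), and stimulated mice lay at 56.0 to 83.8 (median 68.3). Controls 9 and 11, at 199 and 149 CPM, were the 2 highest of all 22 mice. The pooled log2 fold change of Cntn2 was -0.33 (SE 0.16, edgeR p = 0.0585, adjusted p = 0.451), and it was -0.03 (SE 0.10, edgeR p = 0.730) without these 2 controls. Cntnap2 was 49.2 to 65.3 CPM in first-run controls (median 57.4) and 50.1, 56.9, 57.3 and 62.5 in stimulated mice. Its second-run values were 46.3 to 62.1 among controls (median 52.3) and 53.2 to 64.1 among stimulated mice (median 57.9). Its log2 fold change was 0.07 (SE 0.06, edgeR adjusted p = 0.679).

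**Figure D2:**
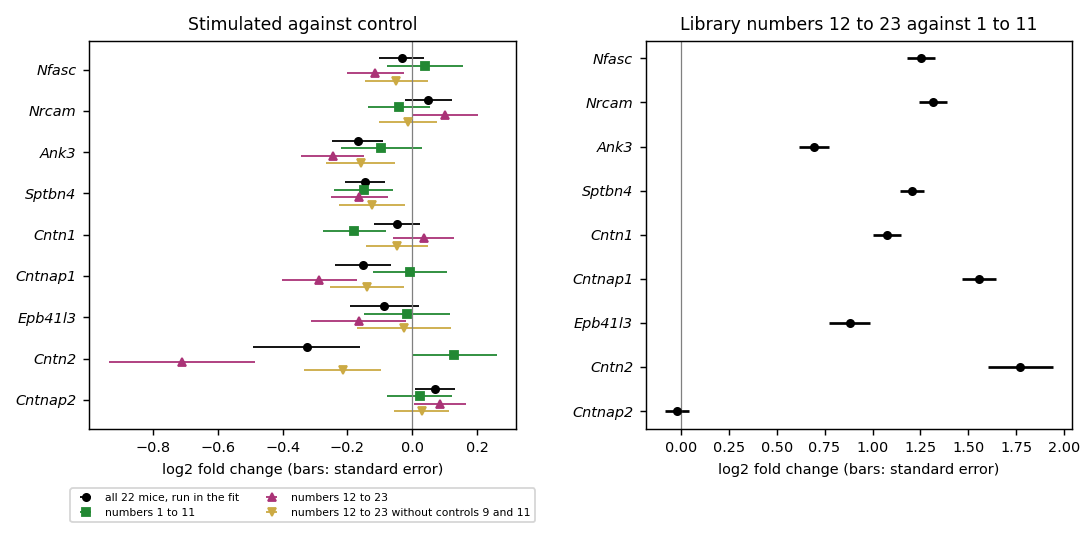
Left, log2 fold change (stimulated over control) of each member with its SE from edgeR, for all mice with the run as a term, within each run, and in the second run without controls 9 and 11. Right, log2 difference of the second over the first run. On the left Cntn2 lies at 0.13 in the first run and at -0.71 in the second, and at -0.21 in the second without the 2 controls. On the right 8 genes lie above 0 and Cntnap2 at -0.02.

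Within the second run Cntn2 had a log2 fold change of -0.71 (SE 0.23, edgeR p = 0.00623, adjusted p = 0.281), Cntnap1 of -0.29 (SE 0.11, p = 0.0239 by edgeR) and Ank3 of -0.25 (SE 0.10, p = 0.0229 by edgeR). These were the 3 members with an unadjusted p under 0.05 (12.4% of all genes), and 0 passed adjustment. Without controls 9 and 11, 0 members had an unadjusted p under 0.05 (4.99% of all genes), and the estimates were -0.21 for Cntn2 (SE 0.12, edgeR p = 0.0931), -0.14 for Cntnap1 and -0.16 for Ank3. In the first run 0 members had an unadjusted p under 0.05 (5.56% of all genes) and Cntn2 was at 0.13 (SE 0.13). The difference between runs in the effect on Cntn2 was -0.79 (SE 0.30, edgeR p = 0.0132, adjusted p = 0.558), the only member with an unadjusted p under 0.05 for this term (8.01% of all genes). Without controls 9 and 11 it was -0.32 (edgeR p = 0.0994).

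Controls 9 and 11 had high levels of mature oligodendrocyte genes. In these mice the summed CPM of 12 markers, such as myelin protein genes, was 20043 and 14745, against a range of 2400 to 6377 in the other 20. Over the groups it was 3266 to 20043 in controls (median 5211) and 2400 to 5885 in stimulated mice (median 4162). The mean log2 level of the markers, relative to the average over mice, was -0.10 in both groups of the first run. In the second run it was 0.56 in controls and -0.40 in stimulated mice. In the fit over both runs all 12 markers had lower estimates in stimulated mice with an unadjusted p under 0.05, and their median log2 fold change was -0.69. None passed adjustment in edgeR. Without the 2 controls the median was -0.11, with 12 lower and 2 at an unadjusted p under 0.05. The 11 neuronal markers summed to 9997 to 15780 CPM in controls and 10420 to 16527 in stimulated mice. Of these, 8 were higher and 3 lower, with 2 and 1 at an unadjusted p under 0.05. All 6 astrocyte markers had lower estimates (median -0.14), as did 6 of 7 oligodendrocyte progenitor markers (median -0.05) and 4 of 5 endothelial markers (median -0.08), while 2 of 6 microglial markers were lower. None of these had an unadjusted p under 0.05. Choroid plexus markers, of tissue outside the ACC, summed to 12.5 to 50.1 CPM in second-run controls and 5.25 to 11.3 in second-run stimulated mice. In the first run they summed to 4.12 to 134 CPM in controls (median 10.8) and 10.7 to 17.3 in stimulated mice (median 11.7). All 3 that passed the count minimum were lower, 2 of them at an unadjusted p under 0.05, with and without controls 9 and 11, and the other 2, Folr1 and Otx2, were below it. No marker of any list was at 0 in all mice. The part of these cell types in the members' differences was not tested.

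Members differed in how they sat in the 2 controls with high oligodendrocyte markers. Cntn2, Cntnap1 and Ank3 were among the highest of the second run there, and Nrcam, Cntn1 and Cntnap2 among the lowest. For Cntn1 the values were 445 and 484 CPM against a second-run control median of 527, and for Cntnap2 46.3 and 51.6 against 52.3. Over all 12 second-run mice, 5 members passed adjustment for their correlation with the mean log2 level of the oligodendrocyte markers, over 36 relations (9 members, 2 marker sets, 2 runs). Pearson's r was 0.89 for Cntn2 (permutation p = 0.0033, adjusted p = 0.0239), 0.80 for Cntnap1 (adjusted p = 0.0103 by permutation), -0.89 for Nrcam (adjusted p = 0.00792 by permutation), -0.75 for Cntn1 and -0.72 for Cntnap2. These values rest on controls 9 and 11, which form a cluster of their own on the marker scale. The correlation was computed for the members only, so whether they pass more often than other genes was not tested. Over the other 10 mice Cntnap1 had r = 0.56 (permutation p = 0.0937, adjusted p = 0.225, Spearman's rho = 0.52), Nrcam had r = -0.56 (permutation p = 0.101, adjusted p = 0.227, rho = -0.55) and Cntn2 had r = 0.14 (permutation p = 0.701, adjusted p = 0.788, rho = 0.20). For these markers 0 members passed adjustment over the 10 mice. In the first run 0 members passed for these markers, Cntn2 being at r = -0.41 (permutation p = 0.238, adjusted p = 0.329, rho = -0.37).

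**Figure D3:**
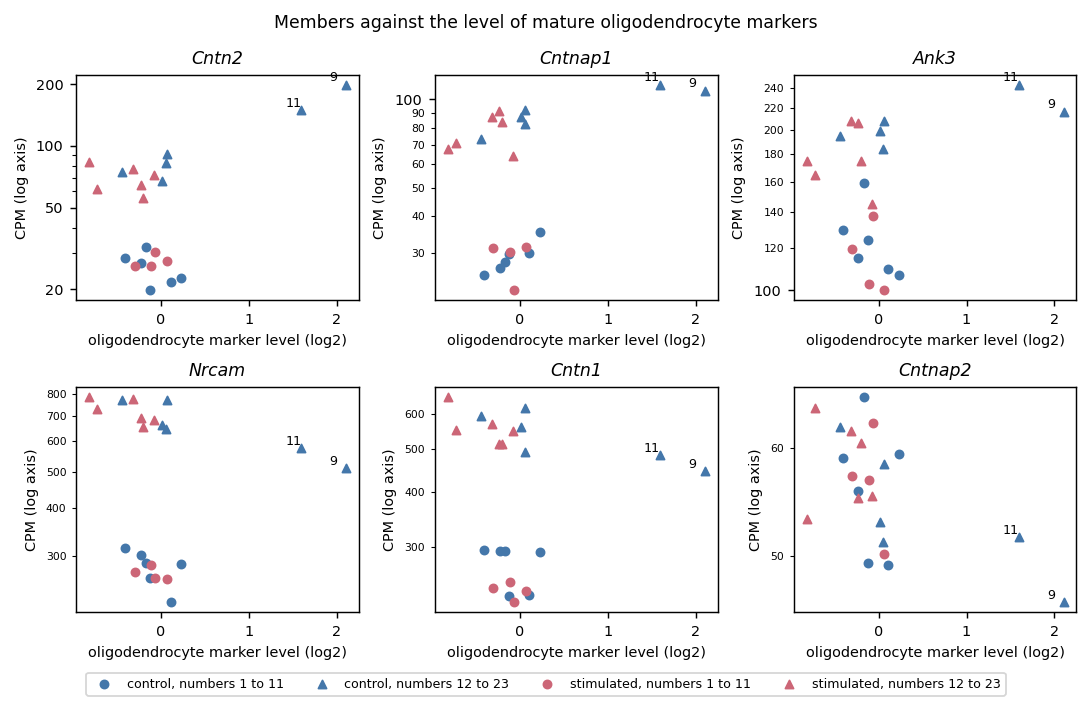
CPM of 6 members (log axis) against the mean log2 level of 12 mature oligodendrocyte markers, relative to the average over mice, with 1 point per mouse, colored by group and shaped by run. Controls 9 and 11 lie far to the right at 2.10 and 1.60, with every other mouse at or below 0.228.

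Against the neuronal markers, Epb41l3 gave the relation that held in both runs. In the first run r was 0.89 (permutation p = 0.00033, adjusted p = 0.00792, rho = 0.84) and 0.77 without the 2 mice farthest from the median. In the second it was 0.72 (permutation p = 0.00793, adjusted p = 0.0357, rho = 0.71), 0.61 without the 2 farthest mice, and 0.87 without controls 9 and 11. Nrcam had r = 0.78 with the neuronal markers in the first run (permutation p = 0.00544, adjusted p = 0.0280, rho = 0.68), and 0.61 without the 2 farthest mice. Its adjusted p was 0.0662 by permutation when controls 9 and 11 were left out of the 36 relations, which changes the family and not this value of r. Spearman's rho passed adjustment for none of the 36 relations.

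Among themselves, the members did not vary as 1 block. After removal of the means of each group and run, the 36 pairs had a median correlation of 0.26 over the 22 mice, from -0.44 for Cntnap1 with Nrcam to 0.89 for Cntn1 with Nrcam. Epb41l3 went with Nfasc (r = 0.83) and with Cntn2 (r = 0.73), and Cntnap2 with Nrcam (r = 0.64). These points share library and depth, so the correlations are descriptions. With controls 9 and 11 left out, the median over the 36 pairs was 0.39 (20 mice). Cntn1 with Nrcam was then at 0.86 and Epb41l3 with Nfasc at 0.82, while Cntnap1 with Nrcam was at -0.18 and the most negative pair was Cntnap1 with Nfasc, which went from -0.32 to -0.55. Cntn2 moved most: its correlation with Nfasc went from 0.69 to 0.87, with Nrcam from -0.33 to 0.60, with Cntn1 from -0.16 to 0.62 and with Cntnap1 from 0.23 to -0.38. Nfasc with Nrcam went from 0.33 to 0.75 and Epb41l3 with Nrcam from 0.21 to 0.78.

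**Figure D4:**
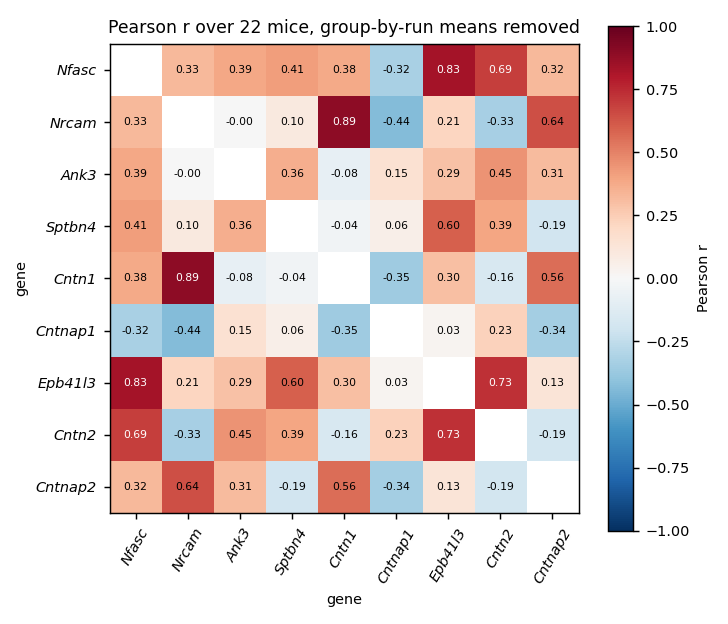
Pearson correlation of log2 CPM between each pair of members over 22 mice, after subtracting the mean of each group and run, ordered by role. Cntn1 and Nrcam form the closest pair at 0.89, and Cntnap1 with Nrcam the most negative at -0.44.

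By the same measure over all tested genes, Epb41l3 was closest to Kcna1, a subunit of voltage-gated potassium channels (r = 0.96 over 22 mice), followed by Slu7 and Tubb4a (both 0.93). Cntn1 was closest to Gria3, an AMPA receptor subunit (r = 0.95), followed by Sv2b and Nol4 (both 0.94). Nrcam was closest to Ptprs, a receptor tyrosine phosphatase (r = 0.93), followed by Nol4 (0.92) and Gria2 (0.91). Nfasc was closest to Kpnb1, a nuclear import receptor (r = 0.93), followed by Bod1l and Sfpq (both 0.91). For Ank3 they were Dst, which encodes the cytoskeletal linker dystonin (r = 0.83), Vps13d (0.72) and Samd5 (0.71). For Sptbn4 they were Cep78, a centrosomal protein gene (r = 0.82), Pml (0.77) and Zfp777 (0.76). For Cntnap1 they were Abcd2, a peroxisomal transporter gene (r = 0.83), Htr7 (0.82) and C230004F18Rik (0.81), and for Cntnap2 Clba1 (r = 0.81), Anks1b and Mblac2 (both 0.80). Over the 20 mice without controls 9 and 11 these 24 values were 0.68 to 0.97. The closest gene was then Adam22 for Nrcam, Sv2b for Cntn1, Gm43672 for Cntnap1 and Mblac2 for Cntnap2, and it was the gene named above for Epb41l3, Nfasc, Ank3 and Sptbn4.

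Cntn2 was closest to Shtn1, which encodes shootin-1 (r = 0.92), followed by Cdc42ep2 (r = 0.88) and Plekhh1 (r = 0.87). Leaving out controls 9 and 11, these 3 values were 0.79, 0.52 and 0.49. The gene closest to Cntn2 was then Etl4 (r = 0.96 over 20 mice).

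The other genes of these domains were described from lists of 63 genes that are not members. Estimates were lower in stimulated mice for 43 and higher for 20, and the median over the 63 was -0.03. Among them, 7 were lower and 1 higher at an unadjusted p under 0.05, against 5.45% and 6.05% of all genes, and 0 passed adjustment in edgeR. Of 10 other paranodal genes, 9 were lower (median -0.27), 4 of them at an unadjusted p under 0.05. Ugt8a, which makes the galactolipids of myelin, was 40.0 ± 34.8 CPM in controls and 21.6 ± 4.95 in stimulated mice (SD, n = 12 and 10), with a log2 fold change of -0.82 (edgeR p = 0.00182, adjusted p = 0.313). Gjb1, the gap junction protein connexin 32, was at -0.68, and Cldn11, the tight junction protein of myelin, at -0.63. Without controls 9 and 11, Ugt8a was at -0.33 (edgeR p = 0.00358, adjusted p = 0.606), Gjb1 at -0.03 and Cldn11 at -0.06. In the first and second run Ugt8a was at -0.23 and -1.33, Gjb1 at 0.0047 and -1.28 and Cldn11 at 0.13 and -1.29. Ugt8a and Cldn11 are also among the oligodendrocyte markers above.

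Of 10 genes listed for the nodal matrix, 8 had lower estimates, 2 of them (Hapln1 and Hapln2) at an unadjusted p under 0.05. The link protein gene Hapln1 was 24.3 ± 4.70 CPM in controls and 20.6 ± 5.51 in stimulated mice, with a log2 fold change of -0.30 (SE 0.10, edgeR p = 0.00600, adjusted p = 0.333). It was -0.30 without controls 9 and 11, -0.43 in the first run and -0.23 in the second. Hapln2, the link protein of central nodes, was at -0.66 and at -0.10 without the 2 controls, and the proteoglycan gene Vcan was at -0.10 and -0.02. Their runs went opposite ways, with Hapln2 at 0.32 in the first run and -1.52 in the second (edgeR p of the difference = 0.00181, adjusted p = 0.545) and Vcan at 0.14 and -0.32. Of 12 nodal channel and scaffold genes 6 were lower. Scn1a, a sodium channel alpha subunit, was at -0.27 (edgeR p = 0.0160, adjusted p = 0.359) and at -0.14 without the 2 controls, and the beta subunit genes Scn2b and Scn4b were at 0.13 and -0.39, and at 0.12 and 0.03 without the 2 controls. Scn4b was at 0.22 in the first run and at -0.90 in the second.

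At the juxtaparanode 8 of 10 other genes had lower estimates, 0 of them at an unadjusted p under 0.05, with Kcna1 at -0.22 and the scaffold gene Dlg2 at -0.16. Lgi3, a secreted protein gene, was at -0.14, with 0.11 in the first run and -0.37 in the second. Without controls 9 and 11 Kcna1 was at -0.07, Lgi3 at 0.08 and Dlg2 at -0.20 (edgeR p = 0.0154, adjusted p = 0.606). Of 10 genes of the axon initial segment, which shares Ank3, Sptbn4, Nfasc and Nrcam with the node, 4 had lower and 6 higher estimates. Synpo alone had an unadjusted p under 0.05. Synpo, which encodes the actin-associated protein synaptopodin, was at 0.18 (SE 0.08, edgeR p = 0.0245, adjusted p = 0.375), and at 0.14 (edgeR p = 0.0909) without the 2 controls. Trim46, which encodes a microtubule-organizing protein, was at 0.12 and the potassium channel gene Kcnq3 at 0.11. Among 19 paralogues of the members, 13 had lower estimates and 0 an unadjusted p under 0.05. The contactin Cntn3 was at -0.18, the ankyrin gene Ank1 at -0.19 and the spectrin gene Sptbn1 at -0.11. With controls 9 and 11 left out, Cntn3 was at -0.24 (edgeR p = 0.0149, adjusted p = 0.606), Sptbn1 at -0.12 (edgeR p = 0.0370, adjusted p = 0.607) and Ank1 at -0.0029. In the first and second run Ank1 was at 0.18 and -0.50.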

How the data were processed

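ACC tissue was sequenced from 12 control and 10 stimulated mice. Libraries were made with the SMARTSeq v4 kit from 5 ng of total RNA. The authors trimmed reads (cutadapt 1.10), aligned them to mm10 (STAR 2.5.3a) and deposited whole-number counts of uniquely aligned reads per gene (htseq-count 0.6.1p1, Ensembl annotation). The authors also deposited a signal (counts divided by size factors) and the log2 fold changes, p-values and adjusted p-values from DESeq2 1.22.1, none of which was used. Of 37786 identifiers, 37772 were found in GENCODE M21, which gave coordinates and lengths.

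The deposited counts were tested in edgeR 4.0.16 (R 4.3.3) with TMM normalization and glmQLFTest, with the run of library numbers and the group as terms, over 17524 genes that reached 10 counts in 10 mice or more, and Benjamini-Hochberg adjustment at 0.05. The study's RNA integrity values and batches are not in the labels. Each standard error was derived from the fold change and the F statistic. CPM use TMM library sizes, and log2 CPM a prior count of 2. Correlations were tested with 100000 permutations. The members and gene lists were chosen with earlier results of these data known. The genes named were all members, the 3 of each list with the smallest p, and the 3 most correlated with each member. The alternatives were group as the only term, other size factors, tools and count minimums, the replicate number as a block, each stimulated replicate of the first run left out, each run alone, and other lengths and marker scores. Leaving out controls 9 and 11 was added after seeing the data.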

Additional observations from a re-analysis of the deposited data

Results flagged for a closer look

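Among the 4 stimulated mice of the first run, the Cntnap1 level of stimulated mouse 4 lay far below the others, at 22.4 CPM against 30.1 CPM in the nearest mouse. Its gap took up 0.866 of the range of the 4. Of 45 groups of mice examined in this way, 1 stood out. Chance alone picks about 1 in 20 of separate groups with a single normal spread. The 45 included, for each member, all stimulated mice together. Those groups span both runs and repeat mice of the other groups, so the rate does not hold for them. The log2 fold change of Cntn2 differed between the runs by -0.79 (interaction term, edgeR p = 0.0132, adjusted p = 0.558), being 0.13 in the first run and -0.71 in the second. It was -0.32 (edgeR p = 0.0994) without controls 9 and 11.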

How the results depend on the processing

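No member passed the adjusted threshold for stimulated against control under any alternative, and the number of members higher in the second run at an adjusted p under 0.05 was 8 under each alternative tried for that comparison. The count at an unadjusted p under 0.05, 2 in all mice (11.5% of all genes), was 0 with group as the only term (3.61% of all genes), 1 with limma (Ank3, 16.3% of all genes), 0 without controls 9 and 11 (8.16%) and 0 in the first run alone (5.56%). With no count minimum it was 2 (9.81% of all genes), but Cntn2 (edgeR p = 0.0360) stood in for Ank3 (edgeR p = 0.0515). The replicate numbers do not pair the mice: the correlation of same-numbered deviations from the means of group and run was 0.0511 on average, over 0.1 in 3 of 10 pairs, and 0 of 10 mice correlated best with their own number. The fits with the replicate number as a block left out controls 11 and 12, which have no stimulated mouse of their number. In these fits 1 member (Sptbn4) had an unadjusted p under 0.05 with the run as a term (11.3% of all genes). Without the run as a term 0 members had one (7.37% of all genes), and 1 of 9 members and 48.8% of all genes were lower.

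For stimulated against control over both runs, the direction turned for 7 of the 9 members under at least 1 alternative, Ank3 and Cntnap2 being the exceptions, and the cause was not tested. With group as the only term the log2 fold change of Nfasc was 0.060 and of Cntn1 0.096. With the replicate block and no run it was 0.20 for Nfasc, 0.080 for Sptbn4, 0.16 for Cntn1, 0.18 for Cntnap1, 0.075 for Epb41l3 and 0.12 for Cntn2. Without controls 9 and 11 it was 0.0071 for Nfasc and -0.015 for Nrcam. In the first run alone it was 0.039 for Nfasc, -0.041 for Nrcam and 0.13 for Cntn2, and in the second run alone 0.035 for Cntn1. With limma it was 0.0019 for Epb41l3.

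Within the first run, leaving out each of the 4 stimulated mice in turn gave -0.022 to 0.082 for Nfasc, -0.053 to 0.091 for Cntnap1, -0.042 to 0.012 for Epb41l3 and -0.034 to 0.075 for Cntnap2, and Cntnap1 was at 0.00035 with no count minimum. Within the second run, the 3 members at an unadjusted p under 0.05 (12.4% of all genes) became 2 without control 9 (9.16%), 1 without control 11 (8.11%) and 0 without both (4.99%). There Cntn1 was at -0.0046 to 0.0071 with 1 of them left out and at -0.047 without both, where Nrcam was at -0.013. For the difference between runs in the effect, 1 member had an unadjusted p under 0.05 (8.01% of all genes). Without both controls 0 members had one (3.97% of all genes), and Epb41l3 was at 0.017. Sptbn4 was at -0.027 with no count minimum.

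The 8 pathway genes at an unadjusted p under 0.05 (11.5% of all genes) became 5 with group as the only term (3.61%). They became 4 with the replicate block and the run (11.3%) and 4 with the block and no run (7.37%). There were 5 without controls 9 and 11 (8.16%), 2 in the first run (5.56%) and 15 in the second (12.4%). The 43 lower (47.4% of all genes) became 26 with group as the only term (47.5%) and 17 with the block and no run (48.8%). Over whole runs, 8 of the 36 marker relations passed adjustment by r, and 2 did without controls 9 and 11, where Epb41l3 and Nfasc had r of -0.077 and -0.14 with the oligodendrocyte markers. Between members, leaving out these controls turned the correlation of Cntn2 with Cntn1 to 0.62, with Nrcam to 0.60, with Cntnap1 to -0.38 and with Cntnap2 to 0.34. Sptbn4 had r of 0.075 with the neuronal markers of the first run by the median of the list. Per kilobase of the longest transcript, CPM in the first and second run were 8.02 and 19.1 for Nfasc, 43.9 and 109.6 for Nrcam, 12.1 and 19.4 for Ank3, 45.8 and 96.2 for Cntn1, 34.1 and 62.5 for Epb41l3, and 3.56 in the first run for Cntn2. Every member had at least 614 counts in each mouse.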
